A study of Rattus norvegicus with 15 samples.

Results

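The Cyp2c cytochromes P450 of rat liver were followed through 7 genes, Cyp2c6v1, Cyp2c7, Cyp2c11, Cyp2c12, Cyp2c13, Cyp2c22 and Cyp2c23, each with 1 probe set, out of 14217 genes named by a probe set of their own on the array. They were chosen by name: a probe set was taken if the array annotation assigned it to a single gene and that gene was 1 of the 8 family members considered. No probe set is annotated to Cyp2c24, which is not analysed here. All 7 lay above the filter on dim probe sets, in every diet. The RNA came from livers of male Sprague-Dawley rats, 1 array per rat, with 5 rats on a diet with 2 g/kg genistein, 5 on a diet with 2 g/kg daidzein and 5 on the control diet, which had no isoflavone. The animals were obtained at 4 weeks of age, adapted for 5 days and then ate their diet for 14 days, and all 3 diets had palm oil (100 g/kg) and casein (200 g/kg) in their base. Both compounds are isoflavones of soy and differ by a hydroxyl group that daidzein lacks. The study compared them in lipid metabolism of the liver, and the Cyp2c values show the same diets in a family of steroid, fatty acid and drug oxidation.

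Cyp2c enzymes sit in the endoplasmic reticulum membrane of hepatocytes, where they insert an oxygen atom into steroids, retinoids, arachidonic acid and many drugs with electrons from the reductase Por. In the rat several are sex-dependent. Cyp2c11, a testosterone hydroxylase, and Cyp2c13 are male forms, Cyp2c12, which hydroxylates steroid sulphates, is the female form, and Cyp2c7 is higher in females. The pulsatile growth hormone secretion of males maintains Cyp2c11 through Stat5b, and the more continuous secretion of females maintains Cyp2c12. Cyp2c6v1 is a drug-oxidising form that phenobarbital induces, Cyp2c22 oxidises retinoic acid, and Cyp2c23 is an arachidonic acid epoxygenase.

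The members are close relatives. In the RefSeq gene table of assembly GRCr8, chromosome 1 lists 17 entries named Cyp2c, of which 11 are protein coding and 6 are pseudogenes. Cyp2c6v1 and Cyp2c7 lie in the middle of this cluster, Cyp2c12 is the direct neighbour of Cyp2c13, and Cyp2c23 stands apart from the rest. The probe set of Cyp2c13 carries the suffix _s_at and that of Cyp2c6v1 the suffix _a_at, which mark probe sets shared by several transcripts. Probe sequences were not used here, so how much of each signal comes from a relative was not tested. The promoters of the sex-dependent members are shown because the first 3 had the widest ranges among genistein arrays and Cyp2c7 shares a motif with 2 of them. Each is 250 bases before to 50 after the start, from RefSeq (GRCr8), 5′ to 3′, and capitals mark matches to motifs given after the sequences.
Cyp2c11 (chr1:246174966-246175265, plus strand): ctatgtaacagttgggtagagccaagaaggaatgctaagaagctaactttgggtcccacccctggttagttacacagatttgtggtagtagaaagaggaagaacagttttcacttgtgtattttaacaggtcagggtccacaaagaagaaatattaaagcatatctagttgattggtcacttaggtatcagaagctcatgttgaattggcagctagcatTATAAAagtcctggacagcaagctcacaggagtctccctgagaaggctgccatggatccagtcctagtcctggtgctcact
Cyp2c13 (chr1:248787139-248787438, minus strand): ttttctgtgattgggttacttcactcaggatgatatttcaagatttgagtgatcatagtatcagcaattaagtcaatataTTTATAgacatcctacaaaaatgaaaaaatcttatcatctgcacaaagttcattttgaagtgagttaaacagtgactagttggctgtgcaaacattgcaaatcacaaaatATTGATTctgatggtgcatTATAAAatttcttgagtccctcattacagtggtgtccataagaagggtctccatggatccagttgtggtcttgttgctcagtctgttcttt
Cyp2c12 (chr1:248676985-248677284, minus strand): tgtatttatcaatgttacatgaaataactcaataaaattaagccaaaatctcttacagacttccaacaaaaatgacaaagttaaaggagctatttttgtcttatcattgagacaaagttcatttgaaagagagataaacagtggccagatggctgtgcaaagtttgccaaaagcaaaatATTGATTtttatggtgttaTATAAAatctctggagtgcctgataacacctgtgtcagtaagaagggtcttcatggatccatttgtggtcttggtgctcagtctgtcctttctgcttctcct
Cyp2c7 (chr1:247966144-247966443, plus strand): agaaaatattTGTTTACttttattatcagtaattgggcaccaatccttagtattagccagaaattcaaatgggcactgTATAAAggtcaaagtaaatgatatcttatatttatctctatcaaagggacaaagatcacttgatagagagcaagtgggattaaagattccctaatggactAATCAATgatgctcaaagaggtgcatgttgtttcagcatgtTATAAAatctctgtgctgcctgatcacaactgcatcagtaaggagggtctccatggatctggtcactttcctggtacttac

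RefSeq promoters were found for 7 of the 8 genes, Cyp2c24 included and Cyp2c6v1 not. The motifs were searched on both strands of these windows and of all 33469 promoters of the table. ATTGATT, a form of the site of Hnf6 (Onecut1), stood in the promoters of Cyp2c7, Cyp2c12 and Cyp2c13, against 2.59% of all promoters. TATAAA, the letters of a TATA box, stood anywhere in the window in 6 of 7, Cyp2c23 being the exception, against 14.2% of all. In Cyp2c7, Cyp2c11 and Cyp2c24 a match lay between -31 and -24 from the start. In Cyp2c13 it lay at -41 to -36 and in Cyp2c12 at -52 to -47. The match of Cyp2c22 began at -197 and further matches in Cyp2c7 and Cyp2c13 at -172 and -170, farther from the usual place of a TATA box. TGTTTAC, a forkhead site, stood in Cyp2c7, Cyp2c22 and Cyp2c23, against 3.78% of all. TTCNNNGAA (Stat5), TTGCNNCAA (C/EBP) and CAAAGTCCA (Hnf4) stood in 0 of the 7 windows, against 8.87%, 2.17% and 0.391% of all. Matches in different members are not independent: after global alignment, the promoters of Cyp2c12 and Cyp2c13 were 67.5% identical, and those of Cyp2c11 and Cyp2c12 were 53.5% identical. A match describes these letters in these windows and says nothing of binding.

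Levels are in log2 units on a scale rebuilt from the deposited scores, with an arbitrary zero, and are compared between arrays for 1 probe set at a time. A gene was called where limma's adjusted p (Benjamini-Hochberg over the 18625 probe sets tested) was under 0.05. Precision is limited by having 5 arrays per diet. In liver tissue, fewer cells of a type and less RNA per cell cannot be told apart. The 7 hepatocyte markers were all measured, with a summed level of 11.11 to 11.15 in genistein arrays, 11.12 to 11.15 in daidzein arrays and 11.13 to 11.16 in control arrays. Quantile normalization gives arrays the same value at the same rank, and the mean of Alb was 9.29 in all 3 diets. Such bright probe sets lead the sum, so it cannot show a change in hepatocyte content. Tat, a dimmer marker, was at 3.99 with genistein, 4.49 with daidzein and 5.01 in controls. Its log2 change with genistein was -1.02 (limma adjusted p = 0.222). The summed levels of the markers of endothelial cells (5 of 5 measured), Kupffer cells (5 of 6), cholangiocytes (2 of 5), leukocytes (3 of 4), erythroid cells (2 of 3) and periportal hepatocytes (7 of 7) had overlapping ranges in all 3 diets. The Gapdh 3′ minus 5′ difference, a sign of RNA quality, lay between -0.05 and 0.09 in genistein arrays, -0.06 and 0.05 in daidzein arrays and 0.01 and 0.09 in control arrays. The same difference for actin lay between 0.87 and 1.16 in genistein arrays, 0.87 and 1.13 in daidzein arrays and 0.95 and 1.15 in control arrays. Genistein 4 was the lowest genistein array for actin (0.87, the next at 1.07) and the highest for Gapdh (0.09). The descriptions of some arrays carry other numbers than their titles, whose numbers are used here, and that of genistein 3 has an unexplained "-re".

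**Figure D1:**
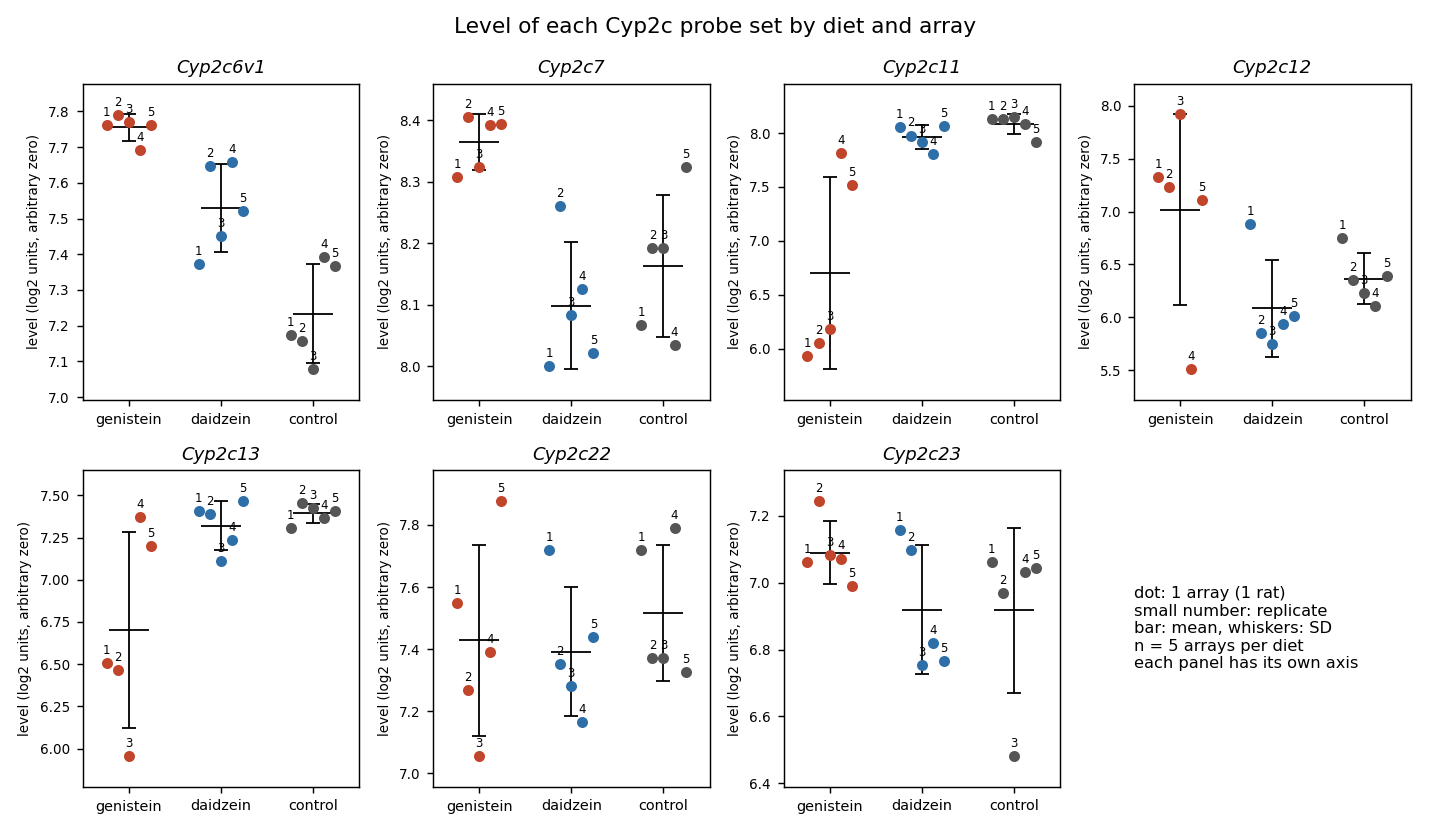
Level of each Cyp2c probe set (log2 units, vertical axis, a separate scale per panel) on each array, by diet, with the mean and SD of 5 arrays. Genistein 1, 2 and 3 lie between 5.94 and 6.18 for Cyp2c11, below every other array, and the 5 genistein arrays lie above every other array for Cyp2c6v1.

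With genistein, Cyp2c6v1 was higher than in controls, and it was the single member called. Its levels were 7.76, 7.79, 7.77, 7.69 and 7.76 in genistein 1 to 5, against 7.18, 7.16, 7.08, 7.39 and 7.37 in control 1 to 5. All 5 genistein arrays lay above every control array, and they lay closer together than those of any other diet. The mean was 7.76 ± 0.04 with genistein and 7.23 ± 0.14 in controls (SD, n = 5 each), a 1.44-fold rise (log2 change 0.52, 95% confidence interval 0.35 to 0.69, limma adjusted p = 0.0151). This was 1 of 7 members called, against 0.322% of all probe sets in this comparison, or 0.150% counting higher ones alone. Leaving out control 1 (adjusted p = 0.0553), control 3 (0.0628) or genistein 2 (0.0612) ended the call, at log2 changes of 0.51, 0.48 and 0.51. It ended as well without quantile normalization (values as deposited, adjusted p = 0.174), with median centring in its place (0.411) or each array's own scale (0.214), with no filter (0.0623), in a fit of the 10 arrays alone (0.0641), with the replicate number as a block (0.0543) and with control 1 and daidzein 5 both left out (0.0802). In these fits the log2 change lay between 0.44 and 0.55.

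Cyp2c11, the male testosterone hydroxylase, had the largest mean difference of the 7 members in size. Its levels were 5.94, 6.05, 6.18, 7.82 and 7.51 in genistein 1 to 5, against 8.13, 8.13, 8.15, 8.08 and 7.92 in control 1 to 5. Every genistein array lay below every control array, but by unequal amounts: relative to the control mean, genistein 1, 2 and 3 were at -2.14, -2.03 and -1.90, genistein 5 at -0.57 and genistein 4 at -0.26. The mean was 6.70 ± 0.89 with genistein and 8.08 ± 0.09 in controls (SD, n = 5 each), and the log2 change was -1.38 (interval -2.03 to -0.73). It was not called (limma adjusted p = 0.0765). The two-sided exact permutation test of these 10 arrays gave p = 0.00794, the smallest that 252 arrangements allow, unadjusted and 1 of 21 such tests over members and comparisons. The fit takes the same spread in every diet, which the SDs here do not show. Without genistein 4 the change was -1.65 and was called (adjusted p = 0.00596), as it was without genistein 5 (-1.59, 0.0444). Over all probe sets, leaving out genistein 4 raised the number called from 60 to 203, so such calls are not particular to the family. Without genistein 1 the Cyp2c11 change was -1.19. Of the 15 omissions of 1 array 2 gave a call, and the limma adjusted p reached 0.187. Genistein 4 also stood apart from the other genistein arrays in the actin 3′ minus 5′ difference, at 0.87. Daidzein 2 was at 0.87 too, with Cyp2c11 at 7.98, between other daidzein arrays. The part of the actin difference in these values was not tested.

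Cyp2c13, the other male form, was likewise lowest on genistein 1, 2 and 3. Its levels were 6.51, 6.47, 5.95, 7.37 and 7.20 in genistein 1 to 5, against 7.31, 7.46, 7.42, 7.37 and 7.41 in control 1 to 5. Genistein 1, 2 and 3 lay at -0.88 to -1.44 relative to the control mean, while genistein 4 lay among the controls and genistein 5 just below them. The log2 change was -0.69 (interval -1.13 to -0.25), from means of 6.70 ± 0.58 with genistein and 7.39 ± 0.06 in controls (SD, n = 5 each). It was not called (limma adjusted p = 0.190, exact permutation p = 0.0238). Without genistein 4 it was -0.86 and was called (adjusted p = 0.0368), the only call in 15 omissions of 1 array. That omission raised the calls over all probe sets from 60 to 203. Without genistein 3 the Cyp2c13 change was -0.50, and over the 15 omissions its limma adjusted p reached 0.357.

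Cyp2c12, the female form, ran the other way on 4 of 5 arrays. Its levels were 7.33, 7.23, 7.92, 5.51 and 7.11 in genistein 1 to 5, against 6.75, 6.35, 6.23, 6.11 and 6.39 in control 1 to 5. Genistein 1, 2, 3 and 5 lay above every control array, and genistein 4 lay below every array of the study. The means were 7.02 ± 0.90 with genistein and 6.37 ± 0.24 in controls (SD, n = 5 each), with a log2 change of 0.65 (interval -0.09 to 1.40) that was not called (limma adjusted p = 0.531, exact permutation p = 0.151). The mean rests on single arrays: without genistein 4 the change was 1.03 and was called (adjusted p = 0.0457), and without genistein 3 it was 0.43 (adjusted p = 0.781). Without genistein 4 the calls over all probe sets rose as well, from 60 to 203. The probe set gave clear signal in these male livers, since its level was at least 5.51 on each array and the filter level was -0.30. Whether that signal comes from Cyp2c12 or from a related transcript was not tested.

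Cyp2c7, which is higher in female rats, had levels of 8.31, 8.40, 8.32, 8.39 and 8.39 in genistein 1 to 5, against 8.07, 8.19, 8.19, 8.04 and 8.32 in control 1 to 5. All 5 genistein arrays lay above the control mean and 3 of them above every control array. The difference was small, a log2 change of 0.20 (interval 0.05 to 0.36) between means of 8.36 ± 0.05 with genistein and 8.16 ± 0.12 in controls (SD, n = 5 each), and was not called (limma adjusted p = 0.313). With each array's own scale it was 0.13 (adjusted p = 0.847). Unlike Cyp2c11, Cyp2c12 and Cyp2c13, it did not set genistein 4 apart from the other genistein arrays.

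**Figure D2:**
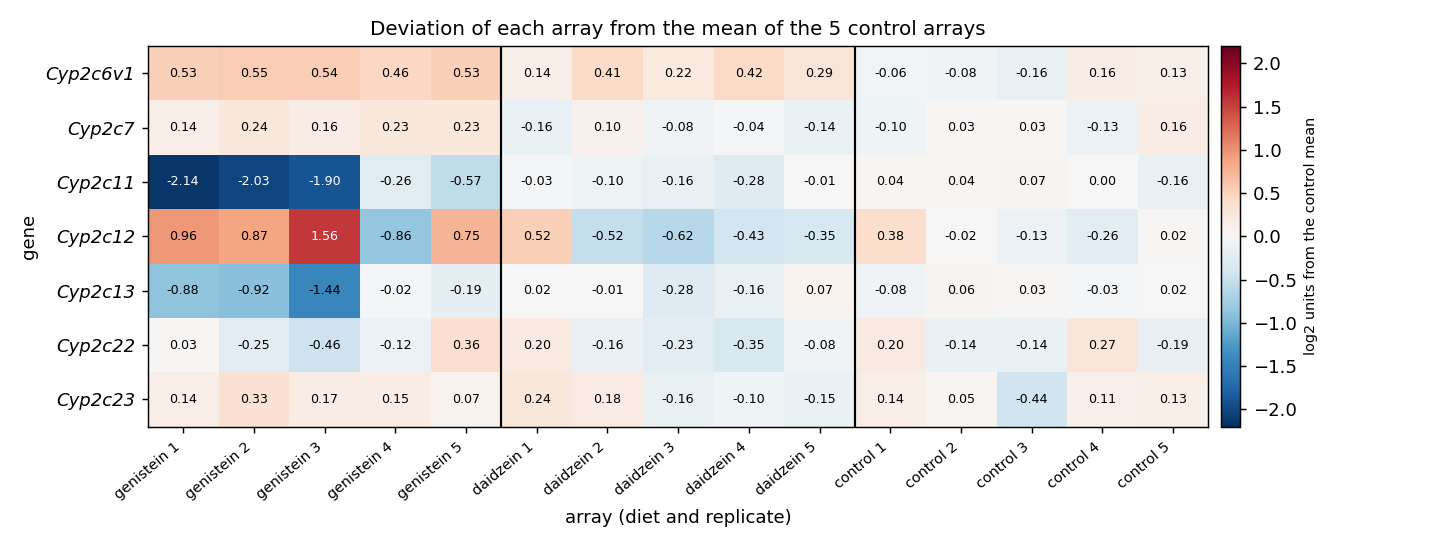
Deviation of each array (columns) from the mean of the 5 control arrays, in log2 units, for each Cyp2c gene (rows), with red above and blue below. Cyp2c11 and Cyp2c13 are lowest and Cyp2c12 is highest on genistein 1, 2 and 3, while Cyp2c6v1 is 0.46 to 0.55 above on all 5 genistein arrays.

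For Cyp2c22 and Cyp2c23 the genistein and control ranges overlapped. Cyp2c22, the retinoic acid oxidase, ranged from 7.06 to 7.88 with genistein (median 7.39) and from 7.33 to 7.79 in controls (median 7.37), and its log2 change was -0.09 (interval -0.41 to 0.24, limma adjusted p = 0.897). Cyp2c23, the epoxygenase, ranged from 6.99 to 7.24 with genistein (median 7.07) and from 6.48 to 7.06 in controls (median 7.03), with a log2 change of 0.17 (interval -0.08 to 0.43, adjusted p = 0.659). The low control value of Cyp2c23 is control 3, and without it the change was 0.065. All 5 genistein arrays lay above the control mean of Cyp2c23 and 4 of them above every control array.

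Over the family, the log2 changes with genistein ran from -1.38 to 0.65, with 4 of 7 members above 0, against 50.0% of all probe sets, and 3 below. The median was 0.17, and the median size was 0.52, against 0.12 over all probe sets tested. The groups did not overlap for 2 of 7 members (Cyp2c6v1 and Cyp2c11), against 2.56% of all probe sets. An unadjusted limma p under 0.05 was reached by 4 of 7, against 10.9% of all. Members are paralogues measured on the same arrays, so these shares are not independent counts.

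With daidzein, no member was called, against 0.0161% of all probe sets. Cyp2c6v1 had the highest log2 change of the 7. Its levels were 7.37, 7.65, 7.45, 7.66 and 7.52 in daidzein 1 to 5, with a mean of 7.53 ± 0.12 against 7.23 ± 0.14 in controls (SD, n = 5 each). All 5 daidzein arrays lay above the control mean and 4 of them above every control array. The log2 change was 0.30 (interval 0.12 to 0.47, limma adjusted p = 0.348, exact permutation p = 0.0159). It was the single member with an unadjusted limma p under 0.05, against 8.30% of all probe sets, and no member's groups were without overlap, against 1.86% of all.

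Cyp2c11 kept a narrow range with daidzein, at 8.05, 7.98, 7.92, 7.80 and 8.07 in daidzein 1 to 5. All 5 lay below the control mean, 3 of them within the control range, and the log2 change was -0.12 (interval -0.76 to 0.53, limma adjusted p = 0.941). The interval is wide because the fit takes part of its error from the genistein arrays: within the pair of diets the SDs were 0.11 with daidzein and 0.09 in controls. Cyp2c13 ranged from 7.11 to 7.47 with daidzein (median 7.39), with a log2 change of -0.07 (interval -0.51 to 0.37). Cyp2c7 ranged from 8.00 to 8.26 (median 8.08), with a log2 change of -0.06 (interval -0.22 to 0.09). Cyp2c7, Cyp2c11 and Cyp2c13 had small changes of either sign depending on the normalization.

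Cyp2c12 was at 6.89, 5.85, 5.74, 5.94 and 6.01 in daidzein 1 to 5. Daidzein 2 to 5 lay below every control array and daidzein 1 above every one, so the log2 change of -0.28 (interval -1.02 to 0.46, limma adjusted p = 0.873) averages arrays of opposite sign; without daidzein 1 it was -0.48. Cyp2c22 ranged from 7.17 to 7.72 with daidzein (median 7.35; log2 change -0.12, interval -0.45 to 0.20). Cyp2c23 ranged from 6.75 to 7.16 (median 6.82; log2 change 0.00, interval -0.25 to 0.26). Of the 7 members 2 were above 0, against 49.9% of all probe sets. The median log2 change was -0.07 and the median size 0.12, against a median size of 0.11 over all probe sets.

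**Figure D3:**
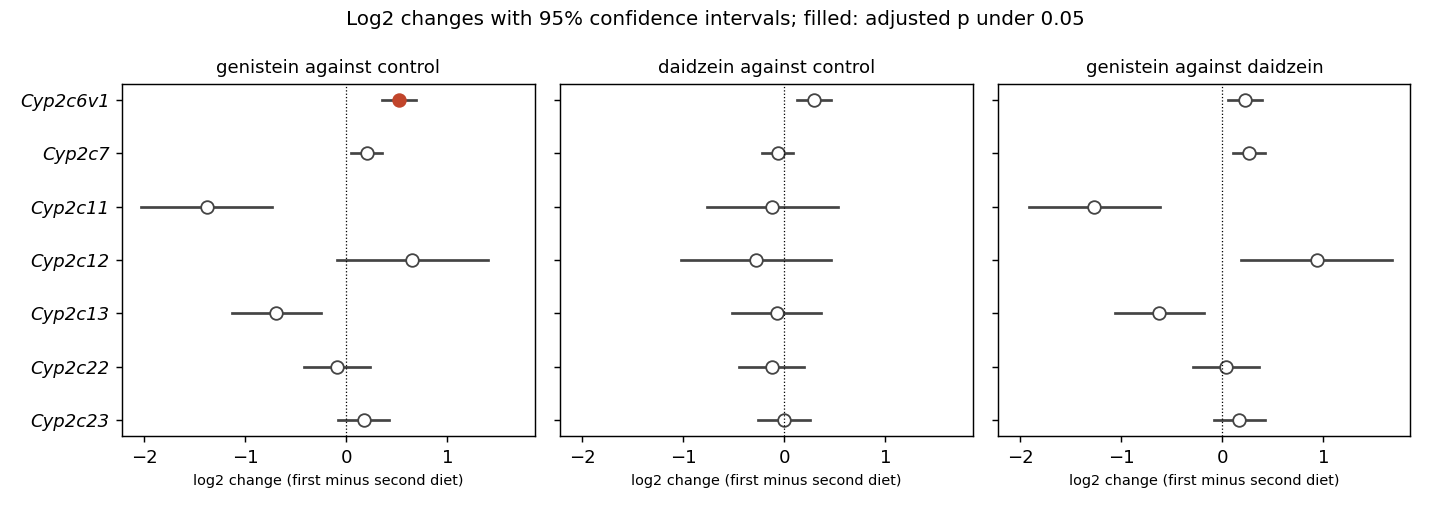
Log2 change of each Cyp2c probe set (points, horizontal axis, first-named minus second-named diet) with its 95% confidence interval from the limma fit, in the 3 comparisons. Cyp2c6v1 with genistein against control, at 0.52, is the single filled point (adjusted p under 0.05), and the changes with daidzein against control lie between -0.28 and 0.30.

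Genistein and daidzein were given at the same dose for the same time, so the pair was compared directly on the 7 probe sets. This contrast shares its arrays with both comparisons above and is not independent of them. No member was called, against 0.113% of all probe sets, although 5 of 7 were higher with genistein, against 50.3% of all, and 5 of 7 had an unadjusted limma p under 0.05, against 9.39% of all. With the values as deposited, with median centring and with each array's own scale that count was 3. Cyp2c11 was lower with genistein (log2 difference -1.26, interval -1.91 to -0.62, limma adjusted p = 0.121, exact permutation p = 0.0159), with 4 of 5 genistein arrays below every daidzein array. Genistein 4, at 7.82, lay just above the lowest daidzein array at 7.80. Without genistein 4 the difference was -1.54 and was called (adjusted p = 0.0115), the only call in 15 omissions of 1 array. That omission raised the calls over all probe sets from 21 to 137. Without genistein 1 the Cyp2c11 difference was -1.08, and over the 15 omissions its limma adjusted p reached 0.291. Cyp2c13 differed by -0.62 (interval -1.06 to -0.18, limma adjusted p = 0.303).

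Cyp2c12 differed by 0.93 (interval 0.19 to 1.68, limma adjusted p = 0.392, exact permutation p = 0.103), with 4 of 5 genistein arrays above every daidzein array. Without genistein 4 it differed by 1.31 and was called (adjusted p = 0.0191), the only call in 15 omissions of 1 array. In that fit 137 of all probe sets were called, against 21 with all arrays. Without genistein 3 Cyp2c12 differed by 0.71, and over the 15 omissions its limma adjusted p reached 0.651. The difference of Cyp2c7 was small but without overlap, at 8.31 to 8.40 with genistein and 8.00 to 8.26 with daidzein (log2 difference 0.27, interval 0.11 to 0.42, limma adjusted p = 0.182). Cyp2c6v1 was likewise without overlap, at 7.69 to 7.79 with genistein and 7.37 to 7.66 with daidzein (0.23, interval 0.05 to 0.40, limma adjusted p = 0.362). Both differences were smaller in other scalings: Cyp2c7 was at 0.15 with the values as deposited, 0.17 with median centring and 0.12 with each array's own scale (adjusted p from 0.832 to 0.990). Cyp2c6v1 was at 0.14, 0.16 and 0.11 in the same fits (adjusted p from 0.860 to 0.993). By mean, Cyp2c6v1 thus stood highest with genistein, next with daidzein and lowest in controls, where the daidzein and control ranges overlapped. These were 2 of 7 members without overlap, against 2.05% of all probe sets. For Cyp2c22 (0.04, interval -0.29 to 0.36) and Cyp2c23 (0.17, interval -0.08 to 0.43) the intervals of the difference include 0. The summed pericentral hepatocyte markers, of the zone where many P450 enzymes are highest, ran from 8.64 to 8.96 log2 units with genistein, 8.29 to 8.53 with daidzein and 8.47 to 8.68 in controls, and 6 of 8 were higher with genistein than with daidzein. One of them, Oat, an aminotransferase of ornithine, was called (log2 difference 0.99, limma adjusted p = 0.0335). Cyp2e1, itself a P450 and the brightest of the 8, leads this sum, so the sum cannot stand for the zone. Cyp2e1 was at 0.35 and Cyp1a2, also a P450, at 0.45. The other markers differed little: Axin2 was at 0.09, Rgn at 0.06, Slc1a2 at 0.04, Glul at -0.06 and Tbx3 at -0.08. All 6 stellate cell markers were also higher with genistein than with daidzein, none of them called, with summed levels of 5.72 to 5.94 with genistein, 5.44 to 5.76 with daidzein and 5.77 to 5.90 in controls. The daidzein sums lay below every control sum but overlapped those with genistein. Against controls 5 of the 6 stellate markers were lower with daidzein, with 0 called and 3 at an unadjusted limma p under 0.05. With genistein 4 of the 6 were higher than in controls, with 0 at an unadjusted limma p under 0.05. The part of these markers in the Cyp2c differences was not tested.

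For each member the 2 genes outside the family with the most similar levels over the 15 arrays were found. Nearest to Cyp2c11 were Ust5r, an organic ion carrier (Pearson r = 0.99, Spearman rho = 0.86), and Hsd3b5, a hydroxysteroid dehydrogenase of male liver (r = 0.98, rho = 0.94). Hsd3b5 was at 0.90, 1.41, 0.34, 5.13 and 3.81 in genistein 1 to 5, at 4.81 to 6.10 in daidzein arrays and at 5.39 to 6.32 in control arrays. Genistein 1, 2 and 3 lay apart from the other arrays, so r over all arrays joins separate clusters. Without genistein 1 and 2, the arrays farthest from the median, r was 0.99 for Hsd3b5 and 0.97 for Ust5r, and over the 10 daidzein and control arrays it was 0.91 and 0.69. For Cyp2c13 the nearest were Cyp3a2, a male P450 (r = 0.95, rho = 0.72), and Hsd3b5 (r = 0.95, rho = 0.72), but over the 10 daidzein and control arrays r was 0.50 and 0.38.

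Nearest to Cyp2c7 was Prlr, the prolactin receptor and a female-predominant liver gene (r = 0.88, rho = 0.85, and r = 0.84 without genistein 2 and 5). Prlr was at 4.02, 4.48, 4.17, 3.27 and 3.81 in genistein 1 to 5, at 1.10 to 2.87 in daidzein arrays and at 0.38 to 2.79 in control arrays, where control 5, the highest control for Cyp2c7, was also the highest for Prlr. Tm7sf3, a membrane protein, was next (r = 0.86, rho = 0.86). Nearest to Cyp2c6v1 were Ugt2b10, a glucuronosyltransferase (r = 0.90, rho = 0.90), and Nfia, a transcription factor (r = 0.90, rho = 0.87). Nearest to Cyp2c12 were Ptgr3, a prostaglandin reductase (r = 0.89, rho = 0.85), and the locus LOC100911177 (r = 0.88, rho = 0.84). Over the 10 daidzein and control arrays r was 0.82 for Ptgr3 and 0.50 for LOC100911177. Cyp2c22 was nearest to Wdr91 (r = 0.86, rho = 0.89) and Mpv17l (r = 0.80, rho = 0.77), and Cyp2c23 to Egflam (r = 0.80, rho = 0.62) and Slc9b2 (r = 0.78, rho = 0.56), where r fell to 0.49 and 0.26 without control 3 and daidzein 3. These correlations were picked as the highest among all tested probe sets, so they carry no test.

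**Figure D4:**
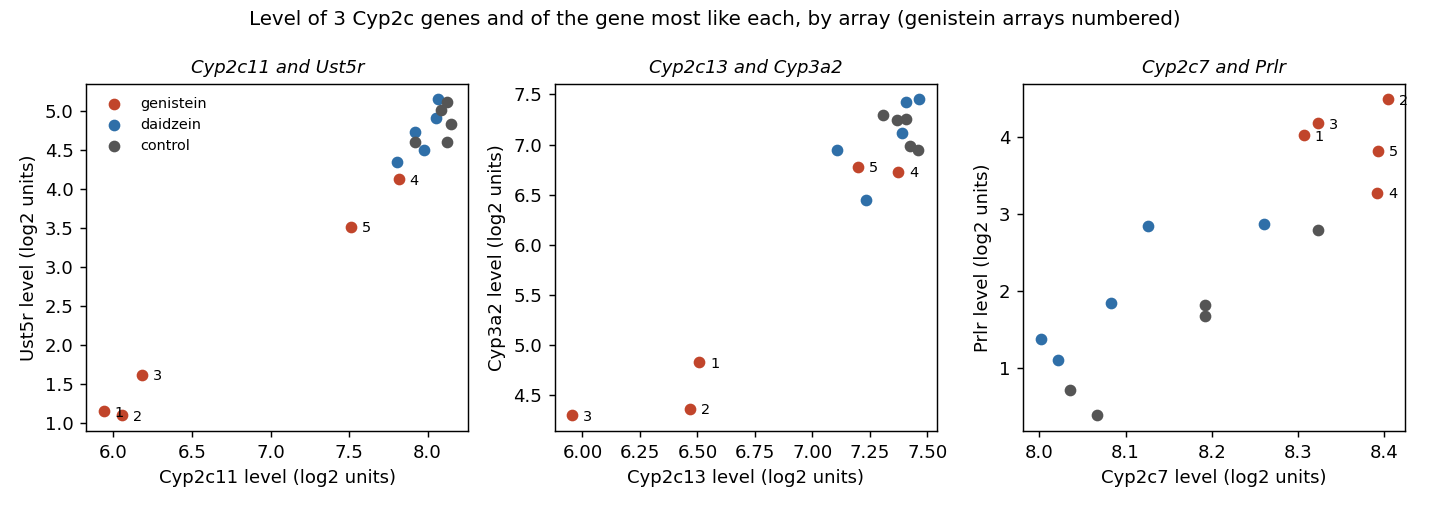
Levels (log2 units) of Cyp2c11, Cyp2c13 and Cyp2c7 on the horizontal axes and of the gene most like each on the vertical axes, 1 point per array, coloured by diet, with genistein arrays numbered. Genistein 1, 2 and 3 form a cluster of their own for Cyp2c11 and Cyp2c13. All 5 genistein arrays lie above every other array for Prlr, while control 5 lies among them for Cyp2c7.

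Genes around the family were read from lists. All 6 measured of 7 male-predominant genes were lower with genistein (median log2 change -2.17, against 0.00 over all probe sets), and Ust5r (-2.53, limma adjusted p = 0.0451) and Hsd3b5 (-3.62, 0.0483) were called. Of 7 female-predominant genes 6 were measured and all 6 were higher (median 2.05), and Sult2a6, a steroid sulphotransferase (3.75, 0.00889), Cyp2a1, a steroid hydroxylase (1.63, 0.0104), and Prlr (2.48, 0.0339) were called. For daidzein against control the same lists had medians of -0.09 and 0.39, with 0 called by limma and 0 and 1 genes at an unadjusted p under 0.05. For genistein against daidzein the medians were -2.13 and 1.61, with 0 called and 6 and 5 genes at an unadjusted p under 0.05. Over all probe sets, the share at an unadjusted limma p under 0.05 was 10.9% with genistein and 8.30% with daidzein. Between the isoflavones it was 9.39%, and the list counts here and below stand beside these shares. Both lists were written with earlier results of these arrays known and are not independent evidence of direction.

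Among 10 measured of 11 genes that carry the growth hormone signal, 5 were higher and 5 lower with genistein (median log2 change -0.06), limma called 0, and 2 had an unadjusted p under 0.05. Bcl6, a repressor that opposes Stat5b, was at -1.46 (limma adjusted p = 0.355), Socs3, a feedback inhibitor, at -0.45 (0.125), and Cish, another, at 0.95 (0.586). These probe sets were dim beside the Cyp2c members, against a filter level of -0.30. Their mean levels were 0.49, 0.10 and 1.61 with genistein and 1.95, 0.55 and 0.66 in controls. With daidzein 5 of the 10 were higher (median -0.01), also with 0 called and 1 at an unadjusted p under 0.05. Of 14 measured of 15 liver transcription factors and xenosensing receptors 8 were higher with genistein (median 0.08) and 7 with daidzein (median -0.02), with 0 called in either comparison and 3 and 1 at an unadjusted p under 0.05. Rora, Foxa3 and Foxa2 had the lowest p with genistein (log2 changes -0.55, -0.38 and 0.62, adjusted p from 0.196 to 0.454). Nr1i3, the receptor CAR that drives phenobarbital induction, had the lowest with daidzein (0.67, adjusted p = 0.549).

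Of 16 targets of CAR and PXR 11 were measured, of which 9 were higher with genistein (median 0.39) and 10 with daidzein (median 0.22). An unadjusted limma p under 0.05 was reached by 4 higher and 1 lower with genistein, and by 5 higher and 0 lower with daidzein. Aldh1a1, a retinal dehydrogenase, was called with genistein (log2 change 1.72, limma adjusted p = 0.0264) and Ephx1, the microsomal epoxide hydrolase, with daidzein (0.79, 0.0447). Both were higher with the other isoflavone as well, without a call: Aldh1a1 by 1.35 with daidzein (adjusted p = 0.242) and Ephx1 by 0.41 with genistein (0.168). Between the isoflavones Gstm1, a glutathione transferase, was called lower with genistein (-0.48, 0.0156). Of 14 measured of 15 genes of P450 electron transfer and haem synthesis 7 were higher with genistein (median 0.00) and 9 with daidzein (median 0.05), with 0 called and 0 and 2 at an unadjusted p under 0.05. Por, the P450 reductase, was at 0.39 with genistein (adjusted p = 0.530) and at 0.22 with daidzein (0.817). A list of 14 genes of arachidonate metabolism held Ephx1, Ephx2, Pla2g4a and Cyp2j, Cyp4a and Cyp4f forms, so it is not of epoxides alone. Of 13 measured 7 were higher with genistein (median 0.00) and 9 with daidzein (median 0.18). With daidzein Ephx1, also on the list of CAR and PXR targets, was the single call. An unadjusted limma p under 0.05 was reached by 3 higher and 2 lower with genistein, and by 3 higher and 1 lower with daidzein. Cyp4a1, Cyp4a3 and Cyp4f6 were among them in both comparisons. Of 13 measured of 24 other Cyp2 genes 5 were higher with genistein (median -0.06) and 6 with daidzein (median -0.02), and Cyp2a1, counted above, was the single call, with genistein. Here 1 higher and 4 lower had an unadjusted limma p under 0.05 with genistein, and 0 with daidzein. Cyp2d4 was at -0.61 with genistein (adjusted p = 0.0660). Between the isoflavones, these 3 lists and those of growth hormone signalling and transcription factors had medians from -0.12 to 0.00, with 0 called by limma and 1 to 6 genes per list at an unadjusted p under 0.05.

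**Figure D5:**
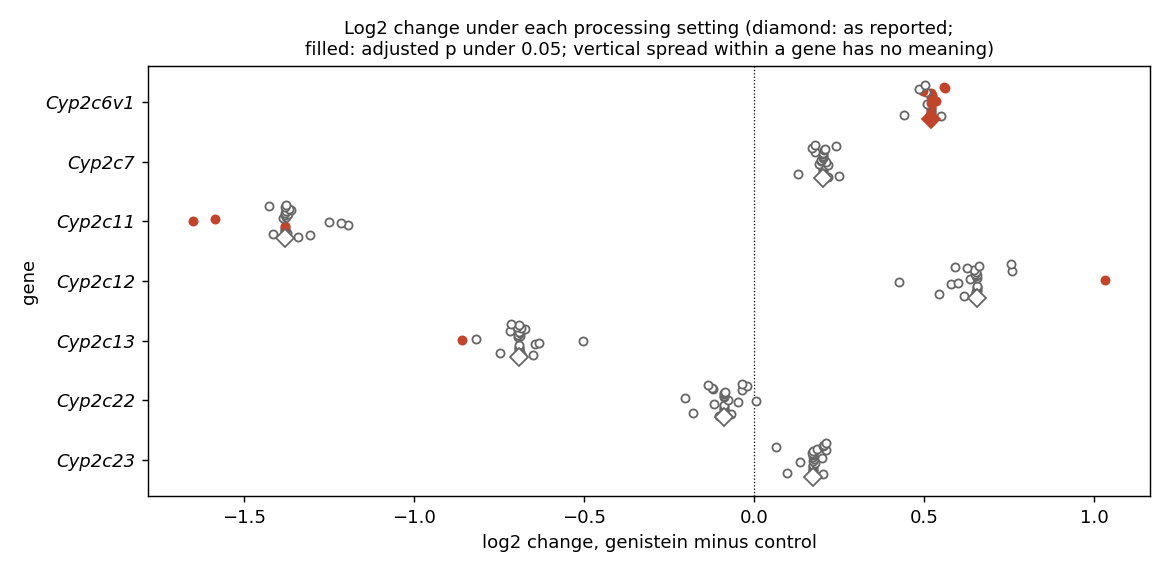
Log2 change of each Cyp2c probe set with genistein against control (horizontal axis) under each processing setting and with each array left out (circles), and as reported (diamonds), with filled symbols where the adjusted p was under 0.05. The Cyp2c11 changes lie between -1.65 and -1.19 and the Cyp2c6v1 changes between 0.44 and 0.56.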

How the data were processed

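Liver RNA of 15 rats was measured on 1-channel arrays, labelled with biotin by Affymetrix's 1-cycle protocol per the labels. The authors deposited 1 table of 31099 probe sets, whose unit is a score: the values look like log signals standardized within each array. How they were made was not given in the sources used here. A log2 scale was recovered by exponentiating with an array's own factor, which made 493 of 493 gaps between values repeated at least 100 times whole numbers of steps within 0.001. This differs from the log values the design assumed. Scores were multiplied by the mean scale, 2.60 log2 units (range 2.54 to 2.79), and quantile normalized, since array medians ran from 0.00111 to 0.127.

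After removal of 57 control probe sets, 18625 remained above a mean-level filter (40th percentile) and were tested with a 3-diet model on all 15 arrays (limma 3.58.1, R 4.3.3, lmFit and eBayes). The steps were tested on simulated data. A gene on a list was represented by its brightest tested probe set. Single values were also compared by two-sided exact permutation over 252 arrangements. The p-values measure the spread between rats. Members and lists were chosen with earlier results of these data known. Symbols came from the array annotation, updated by Entrez gene number: 1 symbol stood for 20826 probe sets, several for 436 and no symbol for 9780. The current table matched 20758. The rule named every member, up to 3 genes of lowest p per list and comparison, and the 2 probe sets most correlated with each member. Array annotation names no genome build, so only promoter windows carry coordinates. A replicate block was an alternative only. The other alternatives were the normalization, the scale, an offset, the filter, the arrays in the fit, the variance model and leaving out arrays.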

Additional observations from a re-analysis of the deposited data

Results flagged for a closer look

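In 21 groups of 5 arrays, 3 single arrays stood far from the others of their diet by Dixon's criterion, where chance would flag about 1 group in 20. Cyp2c6v1 on genistein 4, at 7.69, lay below the other genistein arrays, of which the nearest was at 7.76. Cyp2c12 on daidzein 1, at 6.89, lay above the other daidzein arrays, of which the nearest was at 6.01. Cyp2c23 on control 3, at 6.48, lay below the other control arrays, of which the nearest was at 6.97.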

How the results depend on the processing

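The Cyp2c probe sets called with genistein against control, 1 as reported, numbered 0 with the values as deposited, with median centring, with each array's own scale, without the filter, with only the 10 arrays compared, with the replicate number in a block, and with control 1 and daidzein 5 both left out. It was 2 with an intensity trend in the variance. They ranged from 0 to 4 when single arrays were left out. The 4 came without genistein 4, where 203 of all probe sets were called, against 60 with all arrays. Replicate numbers come from the titles, and those of the descriptions differ for some arrays and were not tried. Arrays that share a title number did not pair: of 15 pairs 1 had residuals correlated above 0.1 (r from -0.163 to 0.109). With the block the log2 change of Cyp2c6v1 was 0.52 (adjusted p = 0.0543). For daidzein against control the count was 0 throughout, and for genistein against daidzein it was 0 in every setting apart from 2 without genistein 4 (range 0 to 2). In that last fit 137 of all probe sets were called, against 21 with all arrays.

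All probe sets called with genistein against control (60) numbered 34 with median centring, 39 with own scales, 14 without the filter, 10 with the 10 arrays, 17 with the replicate block, 119 with the trend and 4 without control 1 and daidzein 5, and 5 to 203 with 1 array left out. For daidzein against control (3) they numbered 6 with the trend, 1 without control 1 and daidzein 5, and 2 to 8 with 1 array left out. For genistein against daidzein (21) they numbered 9 with median centring, 9 with own scales, 35 with 16 added to rebuilt intensities, 3 without the filter, 2 with the 10 arrays, 2 with the block, 57 with the trend, 3 without control 1 and daidzein 5, and 3 to 137 with 1 array left out.

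Some changes near 0 turned sign. For daidzein against control, Cyp2c7 was 0.062 as deposited, 0.078 median centred and 0.0065 with own scales, Cyp2c11 was 0.014 median centred, and Cyp2c13 was 0.036 as deposited and 0.052 median centred. For genistein against daidzein, Cyp2c22 was -0.065 as deposited, -0.048 median centred and -0.089 with own scales. With 1 array left out, Cyp2c22 ranged from -0.20 to 0.0060 with genistein against control and from -0.077 to 0.13 between the isoflavones, and Cyp2c23 from -0.11 to 0.042 with daidzein against control. The cause was not tested. Cyp2c11 with genistein against control was also called with the trend (adjusted p = 0.0479).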
